A study of Drosophila melanogaster with 12 samples.

Results

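The genes described here are those whose levels stood apart between amos mutant and wild-type animals in the same direction at both stages sampled, in antennae of newly eclosed adults and in larval antennal discs. A gene was taken when the ratio of its mean level in amos to its mean level in wild type was at least 4 in both stages, or at most 0.25 in both, with no amos library overlapping a wild-type library in either stage. Levels were reads on the gene per 1000000 reads on all genes (CPM), and 0.5 CPM was added to both means before the ratio was taken. Genes whose symbols start with mt:, Or, Ir, Gr, Obp, Cpr, Lcp, Twdl, Cyp or Osi were left out. This gave 25 of the 15682 genes counted, 10 higher and 15 lower in amos. Because the members were thus chosen by their levels in this contrast, their ratios between the genotypes are given below as a description, without a test.

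Bulk RNA-seq covered 12 libraries in 4 groups of 3: antennae of amos3 adults 0 to 4 h after eclosion, antennae of w1118 control adults of the same age, antennal discs of amos3 third-instar larvae, and antennal discs of w1118 larvae, the controls being called wild type. All animals were raised at 22 °C on standard medium in a light and dark cycle of 12 h each, and both sexes were mixed. Each adult sample pooled about 300 antennae shaken off frozen animals through a 20 µm sieve, and each larval sample pooled 50 antennal discs separated by hand from the eye discs. amos3 is a mutation of the whole animal. The sources used here do not say whether the amos3 and w1118 stocks used for RNA-seq shared a genetic background. The stocks differed in reads of w, the gene affected in w1118, which were present in every amos library and nearly absent in wild type (values below). Effects of amos and of other differences between the stocks cannot be told apart. In bulk RNA, fewer cells of a type and less RNA per cell cannot be told apart either.

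amos encodes a basic helix-loop-helix transcription factor that makes cells of the antennal disc into founders of olfactory sensilla, the hair-like organs of the antenna. Sensilla that depend on amos house the neurons using Odorant receptors, while most of the neurons using Ionotropic receptors arise through another proneural gene, atonal. A mature sensillum also holds support cells, which form the hair and its socket and secrete binding proteins and enzymes into the fluid around the neurons. The disc is the larval primordium of the antenna, an epithelium in which neuronal specification only begins near pupariation, so most genes of mature sensilla are not yet in use there.

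The amos adult libraries held 36396746 to 50252338 reads on genes, against 25150198 to 25721392 in the wild-type adult libraries. The amos disc libraries held 39247300 to 43984887, against 26796503 to 27661261 in the wild-type disc libraries, so a gene near the floor was read more deeply in amos. The amos gene itself had 0 reads in each amos adult library and 0, 0 and 3 in the amos disc libraries, against 2, 1 and 1 in the wild-type adult and 2, 0 and 0 in the wild-type disc libraries, which is too few to check the genotypes. Replicates differed by more than sampling noise (chi-square per degree of freedom of 31.7 or more in all groups but the wild-type adults, where it was 6.47 to 10.5), and no pair of libraries was identical. For the adult antennae the paper describes 3 biological replicates per genotype. The labels do not say whether replicates came from separate cultures, so p-values below measure the spread between these samples. The summed level of 7 antennal disc markers was 952 to 1382 CPM in amos adults and 1436 to 1611 CPM in amos discs, against 1119 to 1158 CPM in wild-type adults and 1290 to 1610 CPM in wild-type discs, and none of the 7 was past the ratio limits. A list of 8 adult antenna markers, which includes lush, summed to at least 31092 CPM in every adult library and to at most 186 CPM in every disc library. Wild-type disc library 5 stood apart in muscle markers (5 of 6 matched), with 851 CPM, against 122 and 101 CPM in the other 2 wild-type disc libraries and 53.5 to 71.6 CPM in the amos discs. That library was the highest of the 3 wild-type discs for 8 of the 15 lower genes (CG12224, CG31103, CG4594, Dscam4, FBgn0010549, GstE1, ppk13 and tut), beside 44.7% of genes at 1 CPM or more, and the part of muscle tissue in those values was not tested. Fat body markers stood out in wild-type disc library 2, which had 2627 CPM of them, while the amos discs had 208 to 317 CPM and the other wild-type discs 30.9 and 183 CPM. Hemocyte markers summed to 120 to 135 CPM in amos adults, against 33.3 to 38.7 CPM in wild-type adults. Most of that sum was Pxn, at 113 CPM in amos adults and 28.2 CPM in wild-type adults. Hml and NimC1 differed less (8.98 and 3.66 CPM in amos, 5.06 and 2.30 CPM in wild type), and He was close to absent and lower in amos. In discs the hemocyte sum was 60.3 CPM in amos library 3, against 231 and 246 CPM in amos libraries 1 and 2, and 64.1 to 151 CPM in wild type. The part of either tissue in the results below was not tested.

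Alike in direction, the 25 genes spanned a wide range of sizes. In the adult antennae 1.15% of all genes were higher and 1.36% lower in amos by the ratio and overlap limits, and in the discs 0.281% were higher and 0.593% lower. Both stages together gave 0.0638% higher and 0.166% lower, the lower share counting 11 genes that were then left out by symbol. The median log2 ratio of the 10 higher genes was 4.21 in adults and 2.76 in discs, and that of the 15 lower genes was -3.54 in adults and -3.92 in discs, beside medians over all genes at 1 CPM or more of 0.02 and -0.02. These medians follow from the limits and are given for scale only. Of the 10 higher genes 5 had the larger ratio in adults and 5 in discs, and of the 15 lower genes 7 had it in adults and 8 in discs. Past the limits in opposite directions in the 2 stages were 0.0128% of all genes, the muscle genes Act57B and Mlp60A.

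**Figure D1:**
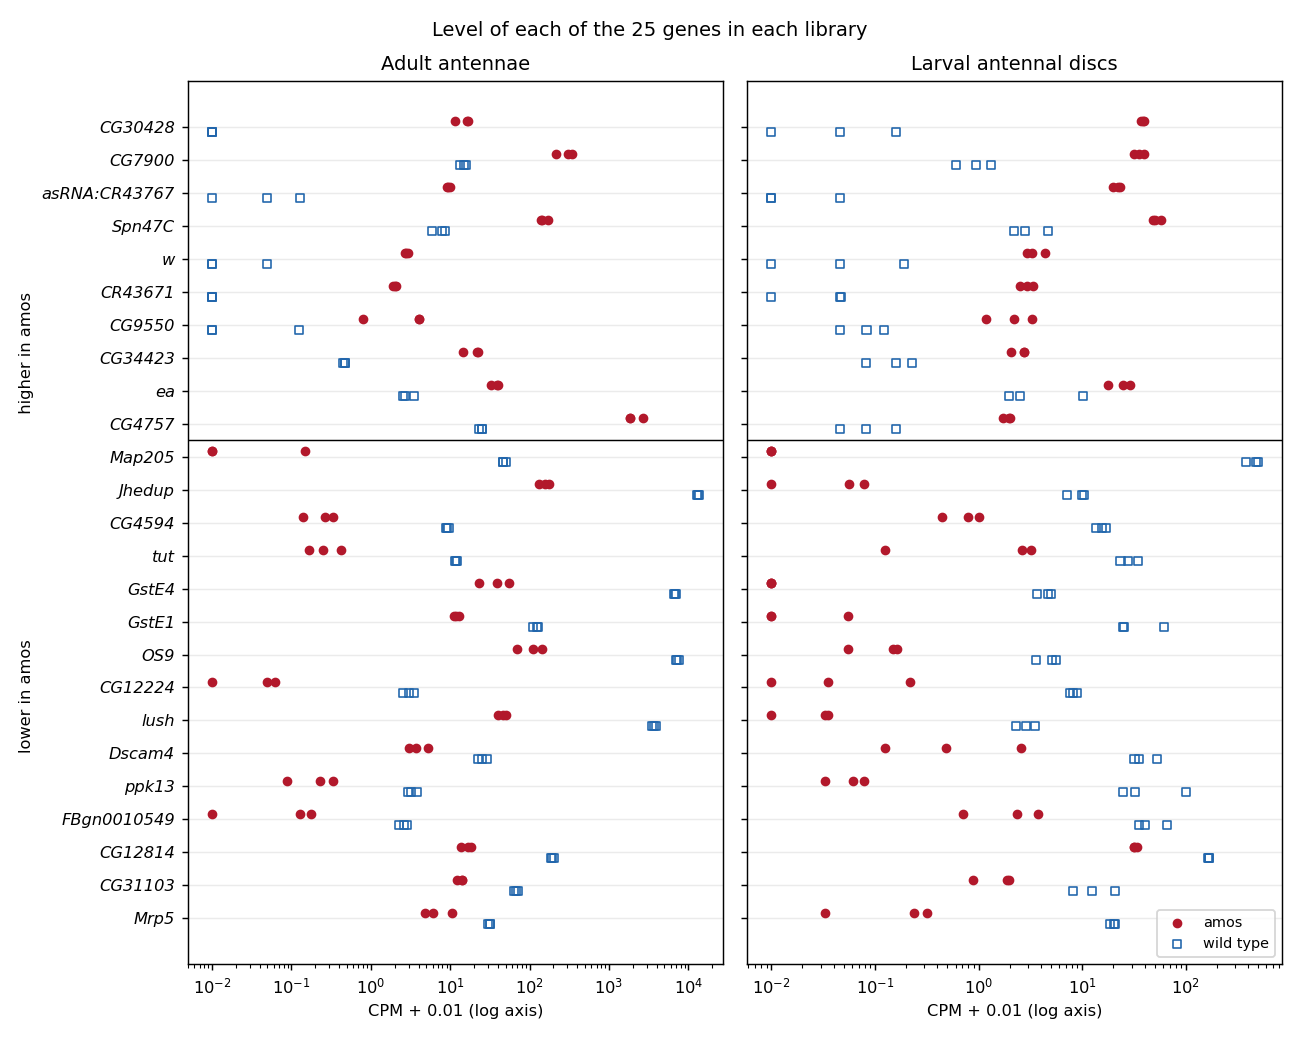
Level of each of the 25 genes in each library, as CPM + 0.01 on a log axis, with adult antennae on the left and larval antennal discs on the right. Red circles are the 3 amos libraries of a stage and open blue squares the 3 wild-type libraries, and the genes are grouped into the 10 higher and the 15 lower in amos. In every row the red and blue points do not overlap, which the choice of the genes required.

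**Figure D2:**
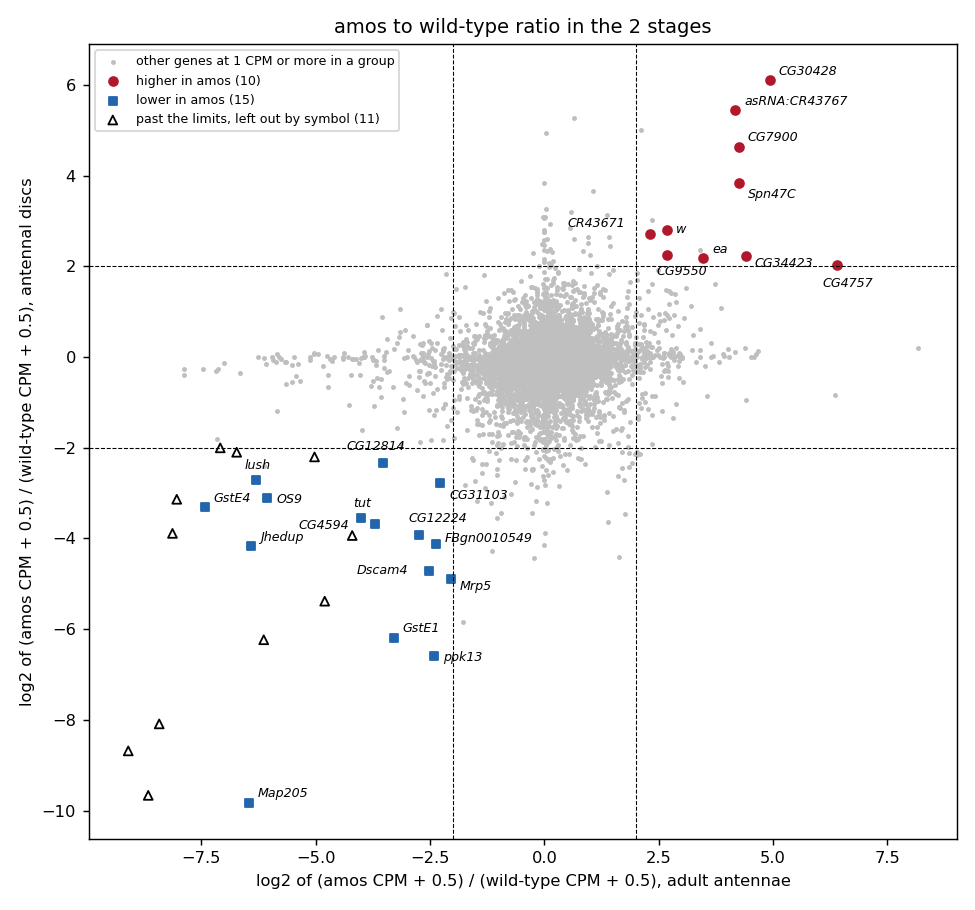
Log2 of (mean amos CPM + 0.5) over (mean wild-type CPM + 0.5) in adult antennae (horizontal axis) and in antennal discs (vertical axis), one point per gene at 1 CPM or more in at least 1 group. Red circles are the 10 genes higher in amos, blue squares the 15 lower, open triangles 11 genes past the limits that were left out by symbol, and dashed lines mark the limits of 2 and -2. CG4757 lies far out on the adult axis and close to the limit on the disc axis, and Map205 is farthest out in the discs at -9.82.

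Among the membrane transporters, w (white, FBgn0003996, X from 2790599 to 2796466 on the minus strand in the BDGP6.54 assembly as annotated by Ensembl release 115, which supplies all positions here) encodes the ABC transporter subunit that carries eye pigment precursors, and w1118, the allele that names the control stock, is a deletion at this gene. In adult antennae w had 107, 135 and 105 reads in amos, against 0, 1 and 0 in wild type. In discs it had 128, 191 and 127 reads in amos, against 1, 0 and 5 in wild type. All 6 amos libraries thus held over 100 reads of w and no wild-type library more than 5. The amos levels were 2.79 ± 0.132 CPM in adults and 3.52 ± 0.733 CPM in discs (SD, n = 3 each), and the log2 ratios were 2.68 and 2.81, values that the added constant limits where the wild type is near 0. Summed over 8 genes, an eye disc marker list gave 258 to 304 CPM in amos discs, against 384 to 486 CPM in wild-type discs. Within the list ato, which is atonal and also acts in the antennal disc, and sens were higher in amos discs (81.5 and 24.5 CPM in amos, 57.6 and 10.1 CPM in wild type). The means of ey, toy, so, eya, dac and gl were lower in amos discs. For toy and dac they were 94.5 and 36.1 CPM in amos, against 194 and 84.4 CPM in wild type. The part of eye tissue in the w reads was not tested. kirre, which spans w on the opposite strand, had 19.5 CPM in amos adults and 39.5 CPM in wild-type adults, and 6.13 CPM in amos discs and 6.74 CPM in wild-type discs.

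A pair of other ABC transporter genes was lower in amos. Mrp5 (FBgn0038740, 3R from 19865417 to 19875678 on the minus strand), of the multidrug resistance protein type, had 6.13, 10.6 and 4.79 CPM in amos adults, against 30.3, 32.0 and 31.5 CPM in wild-type adults. In discs Mrp5 had 12, 10 and 1 reads in amos, against 561, 561 and 512 in wild type. The adult gap was the narrowest of the 15 lower genes, with a log2 ratio of -2.05, while the disc log2 ratio was -4.90. The other (FBgn0010549, 2R from 9390165 to 9395281 on the plus strand) was hardly expressed in adults, where its reads were 6, 6 and 0 in amos, against 74, 58 and 65 in wild type. In discs its level was 3.77, 2.32 and 0.696 CPM in amos, against 40.4, 35.6 and 66.6 CPM in wild type. The highest amos disc library was still far below the lowest wild-type one, wild-type disc library 5 was the highest of its group, and amos disc library 3 the lowest of its own.

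The 4 lower genes with the highest wild-type adult levels encode an odorant-binding protein, an olfactory-specific protein and 2 enzymes. lush (FBgn0020277, 3L from 19604398 to 19606090 on the minus strand) encodes the odorant-binding protein of trichoid sensilla needed for sensing the male pheromone cis-vaccenyl acetate, and it passed the symbol rule because it carries no Obp name. In adults lush had 1820, 2341 and 1527 reads in amos, against 88977, 93918 and 97314 in wild type. In discs lush had 1, 1 and 0 reads in amos, against 64, 93 and 78 in wild type. Amos antennae kept 1.24% of the wild-type adult level, with the 3 replicates of each genotype close together. OS9 (Olfactory-specific 9, FBgn0042129, 2L from 19965664 to 19966510 on the minus strand) had 111, 144 and 70.2 CPM in amos adults, against 7048, 7128 and 7586 CPM in wild-type adults. In discs OS9 had 6, 2 and 6 reads in amos, against 100, 150 and 141 in wild type. The log2 ratios of lush were -6.31 in adults and -2.71 in discs, and those of OS9 were -6.06 and -3.11.

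Jhedup (juvenile hormone esterase duplication, FBgn0034076, 2R from 16117109 to 16119149 on the plus strand), a carboxylesterase gene, was the most abundant of the 25 in any library. Its adult level was 130.5, 177 and 157 CPM in amos, against 13299, 12937 and 13500 CPM in wild type. In discs Jhedup had 0, 3 and 2 reads in amos, against 197, 279 and 274 in wild type. The amos adults kept 1.17% of the wild-type level, and the log2 ratios were -6.41 in adults and -4.17 in discs. CG4757 (FBgn0027584, 3R from 11161207 to 11163498 on the plus strand), which encodes a protein of the carboxylesterase family, moved the other way. Its adult level was 1825, 1836 and 2694 CPM in amos, against 25.5, 25.1 and 23.1 CPM in wild type. In discs CG4757 had 78, 76 and 85 reads in amos, against 2, 4 and 1 in wild type. It had the largest adult log2 ratio of the 10 higher genes (6.40) and the smallest disc log2 ratio (2.03), which is the one nearest to the limit of 2 on that scale.

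Both glutathione S-transferase genes, enzymes that conjugate glutathione to foreign compounds, were lower in amos, with different patterns. GstE4 (FBgn0063496, 2R from 18403248 to 18404086 on the plus strand) had 38.8, 54.8 and 22.8 CPM in amos adults, against 7029, 6554 and 6715 CPM in wild-type adults. In discs GstE4 had 0, 0 and 0 reads in amos, against 102, 135 and 129 in wild type, at least 58.6-fold lower when set against the floor of 3 counts in one amos library. GstE1 (FBgn0034335, 2R from 18398393 to 18399223 on the plus strand) had 11.8, 11.2 and 12.8 CPM in amos adults, against 127, 112 and 126 CPM in wild-type adults. In discs GstE1 had 0, 2 and 0 reads in amos, against 699, 669 and 1673 in wild type, library 5 being the high one. In wild-type discs GstE4 averaged 4.48 CPM and GstE1 37.1 CPM, and amos adults kept 9.83% of the wild-type adult level of GstE1.

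The remaining members with an assigned role in proteolysis were both higher in amos. ea (easter, FBgn0000533, 3R from 15328729 to 15330408 on the plus strand) encodes the serine protease that activates the Toll ligand in the embryo. It had 39.6, 39.1 and 32.5 CPM in amos adults, against 3.46, 2.53 and 2.66 CPM in wild-type adults. Its disc level was 24.9, 28.8 and 17.7 CPM in amos, against 2.49, 1.98 and 10.1 CPM in wild type. All amos libraries were above all wild-type libraries, and in the discs the gap was narrow only against wild-type library 5. The log2 ratios of ea were 3.47 in adults and 2.18 in discs, and the disc log2 ratio was 3.15 without wild-type disc library 5. Spn47C (FBgn0033574, 2R from 10938425 to 10941738 on the minus strand), of the serpin family of protease inhibitors, had 173, 141 and 143 CPM in amos adults, against 8.64, 7.93 and 5.92 CPM in wild-type adults. In discs Spn47C had 57.6, 48.2 and 50.5 CPM in amos, against 4.63, 2.20 and 2.81 CPM in wild type. Its ratio was similar in both stages, at log2 values of 4.26 and 3.82.

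Map205 (FBgn0002645, 3R from 32055279 to 32068441 on the minus strand), which encodes a microtubule-associated protein that binds the mitotic kinase Polo, had the largest disc difference of the 25. In adults it had 0, 7 and 0 reads in amos, against 1194, 1197 and 1271 in wild type. In discs Map205 had 0, 0 and 0 reads in amos, against 13816, 12884 and 10353 in wild type. All 7 amos reads were in adult library 2, and the wild-type discs held more than the wild-type adults. Against the floor of 3 counts in one library, the amos discs were at least 5923-fold lower. Map60 and futsch, the other microtubule-associated proteins on the list fixed for this family, were past the limits in neither stage, with log2 ratios of -0.13 and -0.32 in adults and -0.09 and -1.07 in discs.

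At the cell surface, Dscam4 (FBgn0263219, 3L from 8238647 to 8282398 on the plus strand), of the immunoglobulin superfamily to which the neuronal recognition molecule Dscam1 belongs, had 3.68, 5.31 and 3.01 CPM in amos adults, against 25.2, 28.8 and 22.6 CPM in wild-type adults. Its disc level was 2.57, 0.477 and 0.116 CPM in amos, against 35.2, 32.0 and 53.3 CPM in wild type. The amos discs spread widely, with library 3 the lowest, and all were below the wild-type discs, giving a log2 ratio of -4.71 there and -2.53 in adults. Without amos disc library 1, the highest of its group, the disc log2 ratio was -5.67. ppk13 (pickpocket 13, FBgn0053508, 2L from 21086790 to 21088751 on the minus strand), a subunit gene of the DEG/ENaC sodium channel family, had 12, 11 and 3 reads in amos adults, against 97, 75 and 80 in wild-type adults. In discs ppk13 had 2, 3 and 1 reads in amos, against 888, 662 and 2744 in wild type. Library 5 held most of the wild-type disc reads, and the disc log2 ratio was -6.59 with it and -5.72 without it.

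tut (tumorous testis, FBgn0052364, 3L from 8209577 to 8210743 on the minus strand) encodes an RNA-binding protein known from the male germline. It had 15, 12 and 6 reads in amos adults, against 308, 299 and 308 in wild-type adults. In discs tut had 102, 140 and 5 reads in amos, against 760, 629 and 946 in wild type. Amos disc library 3 was the low one, as it was for Dscam4, Mrp5 and FBgn0010549. That library was the lowest of the amos discs for 8 of the 15 lower genes, some of them at a few reads. The share over all genes was not computed. Germline transcripts were close to absent from every library: 6 testis markers together summed to 0 to 0.0995 CPM in amos adults and 0.205 to 0.394 CPM in amos discs, against 0.233 to 0.477 CPM in wild-type adults and 0.149 to 0.511 CPM in wild-type discs.

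Among lower genes named only by an annotation number, CG12814 (FBgn0037796, 3R from 10171156 to 10189603 on the minus strand) had close replicates. Its adult level was 16.1 ± 2.41 CPM in amos and 193 ± 8.34 CPM in wild type (SD, n = 3 each). Its disc level was 32.5 ± 0.987 CPM in amos and 166 ± 1.91 CPM in wild type (SD, n = 3 each). The amos adults kept 8.36% and the amos discs 19.6% of the wild-type level. CG4594 (FBgn0032161, 2L from 9920160 to 9921459 on the plus strand) had 12, 13 and 5 reads in amos adults, against 229, 245 and 229 in wild-type adults. In discs CG4594 had 31, 19 and 43 reads in amos, against 376, 416 and 466 in wild type. Its log2 ratios, -3.71 and -3.68, differed by the least of all 25. CG12224 (FBgn0037974, 3R from 11980704 to 11982062 on the minus strand) had at most 2 reads in an amos adult library, against 64 to 91 in wild-type adults, and at most 9 in an amos disc library, against 210 to 246 in wild-type discs. CG31103 (FBgn0051103, 3R from 25219318 to 25221444 on the plus strand) had 12.2 to 14.1 CPM in amos adults, against 63.1 to 71.5 CPM in wild-type adults, and 0.881 to 1.96 CPM in amos discs, against 8.10 to 20.7 CPM in wild-type discs, where library 5 was again the highest.

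On the side of the higher genes, CG30428 (FBgn0050428, 2R from 25251927 to 25254535 on the plus strand) had the largest disc ratio, with a log2 value of 6.10. It had 418, 808 and 635 reads in amos adults, against 0, 0 and 0 in wild-type adults, at least 124-fold higher against the floor of 3 counts in one library. In discs CG30428 had 1437, 1739 and 1650 reads in amos, against 0, 4 and 1 in wild type. CG7900 (FBgn0037548, 3R from 8094124 to 8105083 on the plus strand) had 12516, 15300 and 8307 reads in amos adults, against 385, 407 and 334 in wild-type adults. In discs CG7900 had 1381, 1393 and 1724 reads in amos, against 26, 16 and 36 in wild type. Its log2 ratios were 4.25 in adults and 4.64 in discs. CG30428 was thus close to absent in wild type, whereas CG7900 was measured in every wild-type library.

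CG34423 (FBgn0085452, 2R from 23358612 to 23359204 on the plus strand) had 815, 1110 and 560 reads in amos adults, against 12, 12 and 11 in wild-type adults, and 107, 121 and 89 in amos discs, against 2, 4 and 6 in wild-type discs. CG9550 (FBgn0031826, 2L from 6497053 to 6498466 on the plus strand) had 149, 202 and 30 reads in amos adults, against 0, 3 and 0 in wild-type adults, and 86, 143 and 51 in amos discs, against 1, 3 and 2 in wild-type discs. For both genes amos adult library 3 was the lowest of its group, and for CG9550 it was far below the other 2. The pseudogene CR43671 (FBgn0263746, 2L from 16728035 to 16729681 on the minus strand) had 69, 104 and 76 reads in amos adults, against 0, 0 and 0 in wild-type adults, at least 16.6-fold higher against the same floor, and 131, 128 and 107 in amos discs, against 1, 1 and 0 in wild-type discs. asRNA:CR43767 (FBgn0264267, 2L from 1158576 to 1159355 on the minus strand), annotated as an antisense RNA, had 337, 506 and 348 reads in amos adults, against 1, 0 and 3 in wild-type adults, and 777, 1028 and 958 in amos discs, against 0, 0 and 1 in wild-type discs. Of its length 695 bp overlap Tango14 on the other strand, and Tango14 had log2 ratios of 0.07 in adults and 0.44 in discs. The sources do not say whether counting used strand, so reads of this pair could not be assigned with certainty, and the same holds for CG30428, Dscam4, GstE1, Mrp5, OS9 and w, which also overlap a counted gene on the opposite strand.

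The difference between adult antenna and disc within one genotype was not itself used to choose the genes, so it was tested. This was done in amos for the higher genes and in wild type for the lower ones, where the reads are. The rule did need a measurable level there in both stages, which limits the stage differences that members could have. Shares and medians of members beside those of all genes tested are therefore given for scale only. Within amos 85.6% of the 9985 genes tested differed between the stages at an adjusted p under 0.05 in the quasi-likelihood test of edgeR, with p adjusted after Benjamini and Hochberg (43.8% higher and 41.8% lower in adults), and within wild type 86.6% of 9770 did (43.2% higher and 43.4% lower). Of the 10 higher genes 5 were higher in adults, 2 lower and 3 not called, and of the 15 lower genes 8 were higher in adults, 6 lower and 1 not called. Together 7 of 10 were called in amos and 14 of 15 in wild type, beside those 85.6% and 86.6% of all genes tested. The median log2 fold change was 0.86 for the higher genes beside 0.05 over all genes tested, and 0.48 for the lower genes beside -0.0033 over all.

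Within amos, the adult level of CG4757 was above the disc level in all libraries, by 10.46 ± 0.27 on the log2 scale (SE, adjusted p = 4.5e-08 by edgeR). The other genes higher in amos adults than in amos discs were CG7900 at 3.35 (adjusted p = 1.4e-06), CG34423 at 3.30 (adjusted p = 3.5e-06), Spn47C at 1.88 (adjusted p = 2.3e-06) and ea at 0.97 (adjusted p = 0.00110, all by edgeR). CG30428 and asRNA:CR43767 were lower in amos adults than in amos discs, at -1.03 (standard error 0.16, adjusted p = 0.000494 by edgeR) and -0.87 (standard error 0.12, adjusted p = 0.000238 by edgeR). For w (0.00, standard error 0.25, adjusted p = 0.997), CR43671 (-0.22, standard error 0.25, adjusted p = 0.442) and CG9550 (0.75, standard error 0.63, adjusted p = 0.292) the edgeR test made no call, and CG9550 was called higher in adults once amos adult library 3 was left out (1.19, adjusted p = 0.0451).

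Within wild type, 4 genes were far more abundant in adults: OS9 by 10.83 ± 0.23 on the log2 scale (SE, adjusted p = 1.6e-07 by edgeR), GstE4 by 10.83 ± 0.18 (adjusted p = 7.7e-08), Jhedup by 10.76 ± 0.22 (adjusted p = 1.4e-07) and lush by 10.58 ± 0.20 (adjusted p = 1.2e-07). Smaller adult increases were those of CG31103 at 2.57 (adjusted p = 0.000345), GstE1 at 1.98 (adjusted p = 0.00217), Mrp5 at 0.91 (adjusted p = 4.2e-05) and CG12814 at 0.48 (adjusted p = 0.000276, all by edgeR). Genes lower in wild-type adults than in wild-type discs were FBgn0010549 at -3.94 (standard error 0.28, adjusted p = 2.0e-05 by edgeR), ppk13 at -3.72 (standard error 0.60, adjusted p = 0.00112) and Map205 at -2.98 (standard error 0.13, adjusted p = 2.1e-06), followed by CG12224 at -1.18 (adjusted p = 0.000765), tut at -0.98 (adjusted p = 0.000749) and CG4594 at -0.48 (adjusted p = 0.00724). Leaving out wild-type disc library 5 kept the calls but gave -2.80 for ppk13 and 2.58 for GstE1 on the log2 scale. Among these calls, those of ea in amos and of CG12224, tut and CG4594 in wild type did not hold when all 12 libraries were fitted together (adjusted p between 0.0715 and 0.159 by edgeR). The lower genes therefore included both transcripts more abundant in the adult antenna and transcripts more abundant in the disc. Dscam4 was not called (-0.39, standard error 0.21, adjusted p = 0.121 by edgeR).

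For 5 of the 25 genes the disc reads were a small share of the adult level, and a similar share for each. In amos discs CG4757 was at 0.0895% of the mean amos adult level, and in wild-type discs lush was at 0.0786%, Jhedup at 0.0693%, GstE4 at 0.0662% and OS9 at 0.0660% of the mean wild-type adult level. The other 20 genes were all above 10% in the genotype where they were higher, the lowest being CG7900 at 12.3%. Among genes outside the 25 with at least 1000 CPM in adults, 38 of 109 in amos had discs under 1% of the adult level and 25 of those were under 0.2%. In wild type 33 of 114 such genes were under 1% and 24 under 0.2%. In amos discs OS9 was at 0.104%, Jhedup at 0.0247% and lush at 0.0353% of their lower amos adult levels, and GstE4 had no read. Whether the disc reads of these genes came from disc cells or from adult RNA was not tested. With these 5 genes set aside, by a limit of 1% chosen after the data were seen, 20 of the 25 remained.

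**Figure D3:**
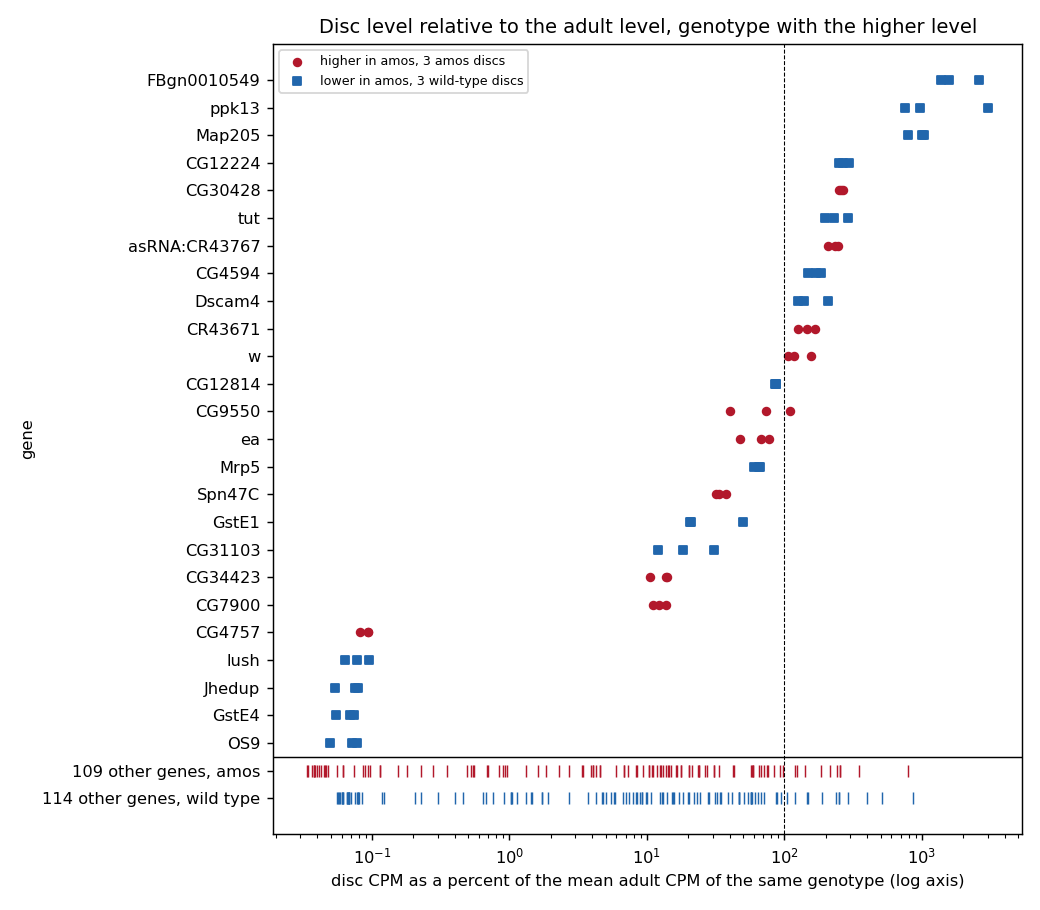
Disc CPM of each gene in each of 3 disc libraries as a percent of the mean adult CPM of the same genotype (log axis), taken in amos for genes higher in amos (red circles) and in wild type for genes lower in amos (blue squares). The bottom 2 rows hold the mean percent of each gene outside the 25 with at least 1000 CPM in adults, one tick per gene, 109 in amos and 114 in wild type, and the dashed line is 100%. CG4757, lush, Jhedup, GstE4 and OS9 lie under 0.2%, as do 25 and 24 of the genes in the bottom rows, and the other 20 lie at 10% or more.

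By position the 25 genes were spread over the major arms: 6 lay on 2L, 7 on 2R, 3 on 3L, 8 on 3R and 1, w, on X. This is 24%, 28%, 12%, 32% and 4% of them, beside 17.8%, 20.5%, 19.7%, 24.7% and 16.3% of the 9317 genes at 1 CPM or more with a position. amos lies on 2L from 18596136 to 18596921 on the minus strand, and 3 of the 25 lay within 5 Mb of it (12%, beside 5.51% of those 9317 genes): OS9 at 1.37 Mb, CR43671 at 1.87 Mb and ppk13 at 2.49 Mb. The other 3 genes on 2L were CG4594 at 8.67 Mb, CG9550 at 12.1 Mb and asRNA:CR43767 at 17.4 Mb. Of all 25, 23 were annotated as protein coding.

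A few of the genes lay close to each other or to others that were lower in amos. GstE1 and GstE4 are 4.02 kb apart, and of the 2 genes between them GstE2 had log2 ratios of -0.35 in adults and -0.56 in discs and GstE3 -1.58 and -0.15. GstE10, which overlaps GstE1 by 127 bp on the opposite strand, was at -2.09 in adults and near 0 CPM in the discs of both genotypes. tut and Dscam4 are 27.9 kb apart, and CG8006 and CG8012 between them had log2 ratios of -2.96 and -3.61 in adults but -0.62 and -0.66 in discs. Beside ppk13, at a gap of 0.283 kb, CG33509 was at -5.85 in discs and missed the adult limit at -1.79, and wild-type disc library 5 held 1481 of its reads, against 495 and 415 in libraries 1 and 2, the pattern of ppk13. Of all 48 immediate neighbours that were not themselves among the 25, 6 passed the limits in either direction in adults and 1 in discs, which is 12.5% and 2.08%, beside 4.05% and 1.41% of genes at 1 CPM or more. The direction was that of the flanked gene for 5 of the 6 and for the 1.

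**Figure D4:**
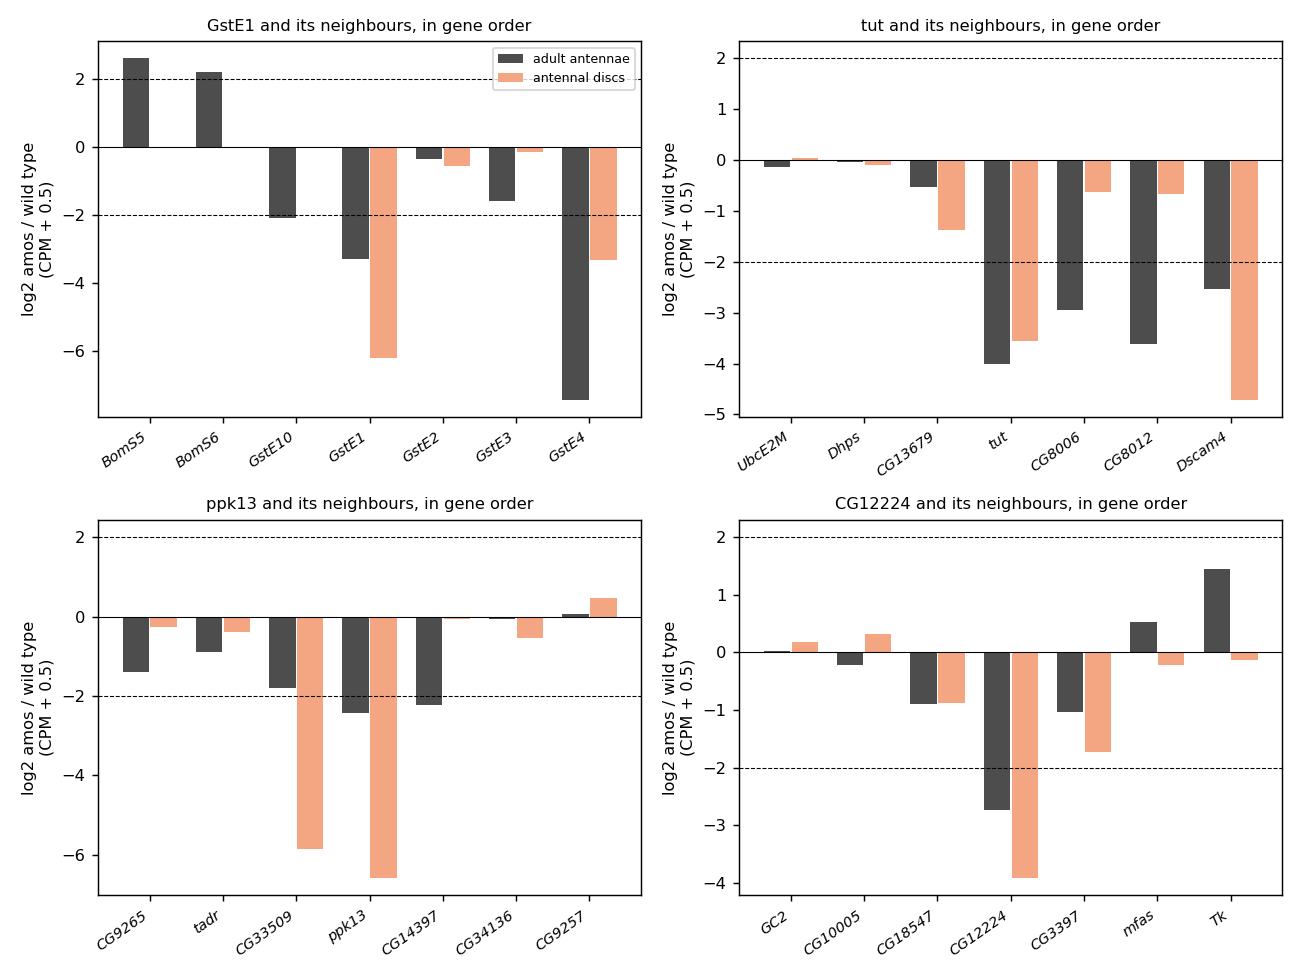
Log2 of (mean amos CPM + 0.5) over (mean wild-type CPM + 0.5) for GstE1, tut, ppk13 and CG12224 with the genes on either side in chromosomal order (dark bars, adult antennae; light bars, antennal discs; dashed lines, limits of 2 and -2). Around ppk13 the disc bars of CG33509 (-5.85) and ppk13 (-6.59) stand together, and between tut and Dscam4 the adult bars of CG8006 (-2.96) and CG8012 (-3.61) are long and their disc bars short.

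Relatives of the genes were read from lists by symbol. Of 35 glutathione S-transferase genes, all at 1 CPM or more in a group, 4 were lower and none higher in amos adults by the ratio and overlap limits (GstE1, GstE4, GstD7 and GstE10), and in discs 2 were lower (GstE1 and GstE4) and GstE8 was higher. These are 11.4% lower in adults, beside 1.36% of all genes, and 5.71% lower and 2.86% higher in discs, beside 0.593% and 0.281%. The shares of all genes are over 15682 genes, of which only 9724 were at 1 CPM or more in a group. GstD7 and GstE10 were close to the adult limit, at log2 ratios of -2.15 and -2.09, with 6.28 and 1.71 CPM in wild-type adults. GstE1 and GstE4 were chosen by this contrast, so these family shares are not independent of the choice. Among all genes at 1 CPM or more, 4.05% passed the limits in either direction in adults and 1.41% in discs. The median log2 ratio of the 35 glutathione S-transferase genes was -0.04 in adults and -0.15 in discs. Of 5 esterase genes on the list, Est-6, Est-P and Est-Q were higher in amos adults (log2 ratios 3.73, 2.22 and 3.23) and Jhedup was the only one lower, in both stages, while Jhe was at -0.23 in adults and had almost no disc reads. The 3 higher esterases were 60.0% of that list, beside 1.15% of all genes higher in amos adults, and the list was chosen with these values known. Est-6, a carboxylesterase of the antenna, had 5799 CPM in amos adults and 438 CPM in wild-type adults, yet 2.48 CPM in amos discs and 0.48 CPM in wild-type discs, and was past the limit in adults alone. Of the 3 eye pigment transporters, w was the only one at 1 CPM or more.

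The study also drew lists of genes from arrays of amos against atonal mutant antennae, one for genes of the Or subsystem and one for genes of the Ir subsystem. The names on those lists held 9 of the 25 genes, 36%, beside 3.21% of all genes at 1 CPM or more. The lists, like the rule, took genes differing about 4-fold or more in amos adult antennae. A high share and a shared direction thus follow in part from the choice. The share among genes past the adult limits alone was not computed. All 8 on the Or list were lower in amos here (CG31103, GstE1, GstE4, Jhedup, lush, Map205, OS9 and tut), and CG4757, on the Ir list, was higher. The lists were made from other samples, so they share the amos mutation but not the libraries, and the array values were not used here. For the arrays the paper back-crossed both mutant lines to a wild-type strain to even out their background. The array comparison was with atonal mutants rather than w1118, and the adults covered a wider range of ages. Of the 8 Or-list genes, Map205, tut, GstE1 and CG31103 had wild-type discs at 946%, 238%, 30.6% and 20.3% of the wild-type adult level, and the other 4 were those with the small disc share.

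Close to the limits, the genes just inside had smaller-stage ratios of 4.52 for ea (discs), 4.13 for Mrp5 (adults, wild type over amos) and 4.09 for CG4757 (discs). Just outside were CG34342 at 3.80 (discs, wild type over amos), CG42364 at 3.78 (discs) and CAH1 at 3.60 (discs). CAH1, a carbonic anhydrase gene, had 2817 CPM in amos adults and 691 CPM in wild-type adults, and 19.5 CPM in amos discs and 5.06 CPM in wild-type discs, and thus resembled the last genes included.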

How the data were processed

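RNA was taken from adult antennae and larval antennal discs of amos and wild-type animals, and the authors made TruSeq stranded mRNA libraries, trimmed and aligned the reads with TopHat2 and deposited raw read counts per gene from HTSeq, one table per library with 15682 genes and 5 summary lines. The submitters' processing notes name cutadapt 1.2.1, TopHat2 2.0.9, HTSeq 0.5.4p3 and BDGP5, whereas the paper's methods name Skewer, other releases of the tools and a later FlyBase annotation. Which set made these tables was not settled, nor whether reads were counted by strand. CPM used the reads on gene lines only. Symbols and positions were looked up by gene identifier in the Ensembl release 115 annotation of BDGP6.54 for 15002 genes, all 25 members included. Promoter, protein and genome sequences were not used here.

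The members and the gene lists were chosen with earlier results of these data known. Every member is named, with the 3 genes nearest to the limits on each side. The stage contrast was fitted with edgeR 4.0.16 in R 4.3.3 (quasi-likelihood test, TMM, filterByExpr) on 3 against 3 libraries per genotype, and p-values were adjusted by Benjamini-Hochberg over all genes tested. The fit was also run on simulated data with 200 changed genes, drawn around adult levels in both stages. The real contrasts had far more and larger changes, so that run cannot show how the fit performs on them. Floors of 3 counts cover counting error only, since PCR copies are not independent molecules. Alternatives were another added constant, ratio limit or scaling (TMM, DESeq2 1.42.0), overlap allowed, other filters and windows, one fit over all libraries, a fold change over 4, DESeq2 as the test, a replicate block and each library left out. Python 3.11.15 was used otherwise.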

Additional observations from a re-analysis of the deposited data

How the results depend on the processing

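The number of genes depended most on the constant added to the CPM and on the ratio limit. With 0.1 CPM added there were 53 (23 higher and 30 lower in amos), with 1 CPM added 15 (5 higher and 10 lower), with a ratio limit of 2 there were 117 (46 and 71) and with a limit of 8 there were 11 (4 and 7). Scaling by TMM gave 23, losing CG4757 and Mrp5, and DESeq2 size factors gave 24, losing CG4757. Allowing overlap gave 26, adding mthl8, and the limit of 1% on the disc share, chosen after seeing the data, gave 20. With each library left out in turn there were 24 to 26 genes (9 to 11 higher, 14 to 16 lower): Mrp5 was lost without amos adult library 1 or 3, CG9550 without amos disc library 2, ea without wild-type disc library 1 or 2, and CG4757 without wild-type disc library 5. A window of 50 kb gave 4 genes with another of the 25 nearby, against 2 within 20 kb.

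In the stage contrasts, requiring a fold change over 4 as well left 4099 of all genes called in amos, with 3 members higher and 0 lower in adults, and 3977 in wild type, with 5 members higher and 3 lower. One fit over all 12 libraries left 3 members lower in wild-type adults. With each library left out in turn, 8304 to 8592 genes were called in amos, with 5 to 6 members higher and 2 lower, and 8134 to 8929 in wild type, with 8 higher and 6 lower. Of 285 single-gene values under the alternatives, 278 kept the call or its absence and 5 lost the call. Another 2 gained it (CG9550, and Dscam4 at -0.65 under scaling by total count), and 0 were called in the opposite direction. The uncalled value of w, 0.0012 in the main fit, changed sign under some alternatives, as at -0.33 under scaling by total count. CG4594 also lost its call when at least 10 counts were required in every library. Same-numbered amos adult and disc libraries had correlated deviations of 0.377, 0.233 and 0.0368. For amos adult libraries 1 and 2 these were the highest among the amos discs, but adult library 3 correlated more with disc library 2 (0.131). A pair of different genotype and number, amos disc 3 and wild-type disc 2, reached 0.454. The study states no pairing, so the shared number was not taken as one in the main fit. A replicate block on the shared numbers left 8574 genes called in amos, with 5 members higher and 2 lower, and no member's call changed. No paired analysis was possible in wild type because its stages share 1 number. Genes at a few reads in one genotype have ratios that the added constant limits, so their true size is not measured at this depth.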

Other observations

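Past the same limits in both stages were 11 genes that were left out by symbol, all of them lower in amos. Of these, 6 are olfactory genes: Obp19a, Obp28a, Obp83a and Obp83b, which encode odorant-binding proteins, Or92a, an odorant receptor, and Orco, the co-receptor of the odorant receptors. Orco had 89.4 ± 29.3 CPM in amos adults and 2929 ± 168 CPM in wild-type adults, and 1, 2 and 1 reads in amos discs, against 38, 58 and 63 in wild-type discs (SD, n = 3 each). Orco, Obp19a, Obp83a and Obp83b were at 0.0664%, 0.0561%, 0.0675% and 0.0660% of the wild-type adult level in wild-type discs, the share seen for lush, OS9, Jhedup and GstE4. Obp28a was higher there, at 0.303%, with 1.40 ± 0.417 CPM in amos discs and 28.6 ± 2.87 CPM in wild-type discs (SD, n = 3 each). Or92a was higher still, at 0.772%, with 0, 0 and 0 reads in amos discs, against 36, 42 and 45 in wild-type discs.

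The other 5 are the mitochondrial genes mt:ATPase6, mt:CoI, mt:CoII, mt:Cyt-b and mt:ND2. The gene mt:CoI, of cytochrome c oxidase, had 159 ± 39.7 CPM in amos adults and 4442 ± 430 CPM in wild-type adults, and 60.2 ± 6.12 CPM in amos discs and 2533 ± 754 CPM in wild-type discs (SD, n = 3 each). Its difference was the smallest of the 5, at 27.9-fold lower in amos adults and 41.7-fold lower in amos discs on the ratio scale with 0.5 CPM added. On the same scale mt:ND2 was 70.4-fold and 75.2-fold lower, mt:ATPase6 343-fold and 272-fold, mt:CoII 405-fold and 811-fold and mt:Cyt-b 549-fold and 411-fold, each in adults and then in discs. In opposite directions in the 2 stages were Act57B, a muscle actin gene, and Mlp60A, a muscle LIM protein gene. Act57B had 8.27, 5.81 and 11.2 CPM in amos adults, against 0.0779, 3.15 and 1.55 CPM in wild-type adults, and 33.2, 29.8 and 37.1 CPM in amos discs, against 58.5, 56.1 and 330.3 CPM in wild-type discs, where library 5 was again the high one.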
